A study of Homo sapiens with 480 samples.

Results

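The day 2 cells of a reprogramming time course were chosen by their measured keratin 6A (KRT6A) value and divided into 59 KRT6A-positive cells, with a value of 1 or more, and 37 KRT6A-negative cells, with a value under 1. All 96 day 2 cells were used, out of 480 single cells in the series, because each of them held at least 2000 genes at 1 or more. The values are FPKM (mapped fragments per kilobase of transcript, relative to the depth of the cell), rescaled here so that each cell sums to 1000000. Detection of a gene means a rescaled value of at least 1. The same division among cells with at least 4000 detected genes left 47 KRT6A-positive and 34 KRT6A-negative cells.

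Both sides come from the same set of cells, BJ fibroblasts 2 days after induced viral expression of the factors OCT4, SOX2, KLF4 and MYC. BJ is an established fibroblast line from neonatal skin. The other groups were day 8 cells, the TRA-1-60 positive and TRA-1-60 negative fractions of a day 16 sort, and BJ fibroblasts that had received no factors. The labels mention neither separate cultures nor separate infections or chips. The day 2 cells are therefore 1 sample, cells are not replicates, and the differences carry no test and no standard error. Because KRT6A chose the sides, every day 2 difference below describes these cells, and intervals on shares are exact binomial (Clopper-Pearson) 95% intervals that cover counting error only.

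Keratins are the subunits of epithelial intermediate filaments, which assemble from pairs of 1 acidic type I chain and 1 basic type II chain. KRT6A is a type II chain that pairs with the type I chains KRT16 and KRT17, and it is known for its induction in epidermal keratinocytes after wounding and for its constant presence in hair follicle, nail and palate. KRT14 pairs with KRT5 in basal keratinocytes, KRT13 belongs to inner stratified epithelia such as the oral mucosa, and KRT8, KRT18, KRT19 and KRT7 belong to simple epithelia. Dermal fibroblasts build their intermediate filaments mainly from vimentin.

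The label of a fibroblast culture held in both sides. VIM, COL1A1 and COL1A2, the genes of vimentin and of the chains of type I collagen, were detected in all 59 KRT6A-positive and all 37 KRT6A-negative cells. The summed level of 8 fibroblast markers ran from 1339 over a median of 4020 to 17716 in KRT6A-positive cells, and from 181 over 5657 to 13190 in KRT6A-negative cells. Defining keratinocyte genes were at or near 0. TP63, the master regulator of stratified epithelium, and the desmosomal cadherins DSG3 and DSC3 were detected in no cell of either side, and KRT5 and involucrin (IVL) were each detected in 1 KRT6A-positive and 0 KRT6A-negative cells. The summed level of all 9 keratinocyte markers, KRT14 among them, ran from 0 over a median of 14.6 to 2198 in KRT6A-positive cells, against 0, 12.9 and 551 in KRT6A-negative cells. The KRT6A-positive cells were therefore described by that gene alone and given no cell type name.

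KRT6A spanned a wide range among its carriers. In KRT6A-positive cells it was lowest at 1.03, had a median of 66.04 and reached 3782, while in KRT6A-negative cells the lowest and the median were 0 and the highest was 0.952. The 5 positive cells closest to the threshold held 1.03, 1.06, 1.12, 1.14 and 1.33, and the 5 closest negative cells held 0.788, 0.795, 0.835, 0.887 and 0.952. Detection covered 61.5% of the cells (interval 50.97% to 71.2%).

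The cells were set in 3 classes by KRT6A, and the threshold of 1 fell inside the middle one. KRT6A was listed at 0 in 29 cells, lay between 0.679 and 4.08 in 27 cells, and lay between 6.27 and 3782 in 40 cells, whose median was 197. Of the 27 low cells, 8 fell on the negative side and 19 on the positive side. The gap between 4.08 and 6.27 is where the plot of KRT6A by cell steps up, and 38 of the 40 higher cells were at 10.8 or more.

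**Figure D1:**
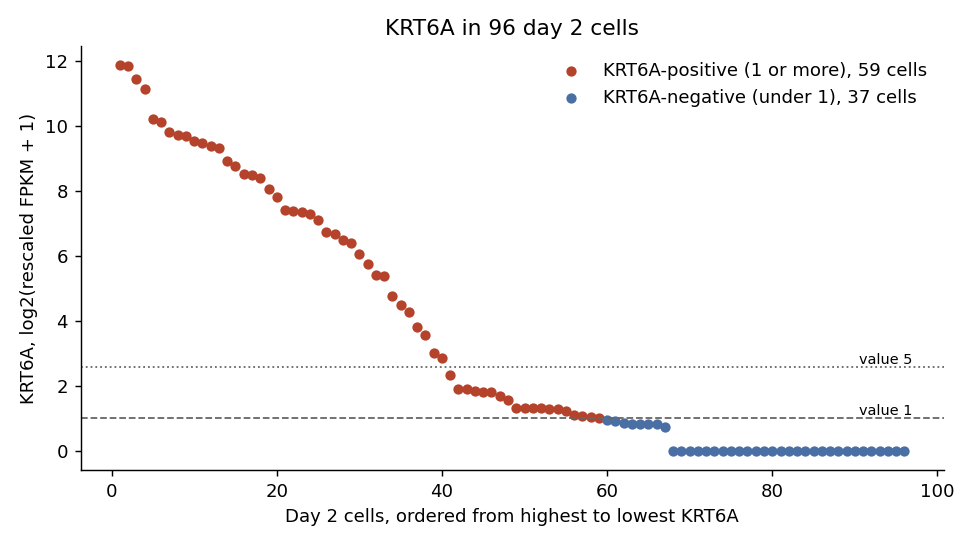
KRT6A in each of the 96 day 2 cells, as log2(rescaled FPKM + 1), ordered from highest to lowest; red points are the 59 KRT6A-positive and blue points the 37 KRT6A-negative cells, with lines at values of 1 and 5. The points run from 3782 down to 6.27 in 40 cells, then along a low shelf between 4.08 and 0.679 that the threshold of 1 divides, and 29 cells sit at 0.

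Among the groups, KRT6A was detected most often at day 2 and next at day 8. It was detected in 19 of 92 kept day 8 cells (20.7%, interval 12.9% to 30.4%), 2 of 95 cells of the TRA-1-60 positive fraction, 3 of 85 cells of the negative fraction and 0 of 92 BJ cells, which allows a share of up to 3.26%. The 5 tables are separate and it is not stated whether they were normalized together, so levels between groups are set side by side only. The near copies KRT6B and KRT6C stayed low at day 2, with KRT6B detected in 0 of 96 cells (a share of up to 3.13% is allowed) and KRT6C in 1 cell, at 2.10. In the GENCODE 29 transcripts the coding sequence of KRT6A is identical to that of KRT6B at 97.5% of 1695 positions and to that of KRT6C at 97.9%. The files do not show how fragments common to these copies were assigned, so the division of signal among the copies is uncertain.

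The sides differed little in the median number of genes per cell, although the 5 cells with most genes were all KRT6A-positive. KRT6A-positive cells had 2248 detected genes at the lowest, 5805 at the median and 8478 at the highest, against 2301, 5902 and 7056 in KRT6A-negative cells. Spearman's rank correlation between KRT6A and detected genes was 0.087 over the 96 cells, which are 1 sample. Cells under 4000 genes made up 12 of 59 KRT6A-positive cells (20.3%, interval 10.98% to 32.8%) and 3 of 37 KRT6A-negative cells (8.11%, interval 1.70% to 21.9%). At the higher level of KRT6A the order of the medians turned, with 6303 genes in cells at 5 or more and 5790 in cells under 5. Among the latter, the medians were 5938 in cells at 0 and 5615 in the 27 low cells. Summed housekeeping genes had medians of 29343 in KRT6A-positive and 32165 in KRT6A-negative cells. Small RNA and mitochondrial ribosomal RNA, without mitochondrial messenger RNA, took medians of 3.83% and 3.43% of the total. The highest cells had 49.6% among the positive and 94.1% among the negative.

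Across genes, 12196 had a mean of at least 1 in either side. A gene was called higher or lower on 2 conditions. Its log2((mean in KRT6A-positive + 1)/(mean in KRT6A-negative + 1)) had to reach 1 in size, which is 2-fold, and its mean log2(value + 1) had to differ in the same direction. By this rule 1281 genes (10.5%) were higher and 1073 (8.8%) lower in KRT6A-positive cells, and these shares are the level against which every count below is read. Among cells with at least 4000 genes, 978 of 11909 genes (8.21%) were higher and 871 (7.31%) lower. Of the 1281 higher genes, 713 were called higher again in those deeper cells and 4 lower. Of the 1073 lower genes, 723 were called lower again and 2 higher. The median log2 ratio over all measured genes was -0.02. A mean over 59 or 37 cells can rest on few cells, so shares of cells are given beside the means of the genes described in detail. At these numbers the interval of a share reaches up to 13.6 percentage points to either side in KRT6A-positive cells and 17.4 in KRT6A-negative cells.

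A majority of the measured stratified keratins other than KRT6A had higher means in KRT6A-positive cells. Of 17 such keratins 7 were measured, 4 of which (KRT14, KRT16, KRT17 and KRT13) were called higher and 0 lower, with a median log2 ratio of 1.10 and a median difference of mean log2 of 0.28. Beside this stand the 10.5% of all measured genes called higher. The list was chosen with these data known, and the other 10 members had means under 1 in both sides.

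KRT14, the basal type I chain, ran from 0 over a median of 11.1 to 2136 in KRT6A-positive cells, with a mean of 103, and from 0 over 6.21 to 540 in KRT6A-negative cells, with a mean of 47.6. Its carriers were 39 of 59 KRT6A-positive cells (66.1%, interval 52.6% to 77.9%) and 21 of 37 KRT6A-negative cells (56.8%, interval 39.5% to 72.9%). KRT14 was thus common on both sides, the intervals of its shares overlapped, and its log2 ratio of 1.10 lay just past the 2-fold limit. Without the highest cell of each side the KRT14 means were 67.9 in KRT6A-positive and 33.9 in KRT6A-negative cells, a log2 ratio of 0.98, and the call was lost. KRT16, KRT17 and KRT13 kept theirs in that setting.

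KRT16, the wound-associated partner of KRT6A, was found in fewer cells. It had a median of 0 and a highest value of 699 in KRT6A-positive cells, with a mean of 38.4, against 0, 200 and a mean of 12.9 in KRT6A-negative cells. The ratio of its means was the second largest among the stratified keratins. The cells holding it numbered 16 of 59 on the KRT6A-positive side (27.1%) and 9 of 37 on the KRT6A-negative side (24.3%), so the difference of KRT16 was one of level in the highest cells and hardly of share. Most KRT6A-positive cells held no detectable KRT16.

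KRT17, the other type I partner, ran from 0 over a median of 1.51 to 1465 in KRT6A-positive cells (mean 102) and from 0 over 0 to 332 in KRT6A-negative cells (mean 36.4), a log2 ratio of 1.46. The gene was found in 52.5% of KRT6A-positive and 43.2% of KRT6A-negative cells. The direction of KRT17 turned to a log2 ratio of -0.46 when the deposited FPKM were used without rescaling, where 1 KRT6A-negative cell has a total of 7.494e+07 FPKM. KRT13, of mucosal epithelium, was low, with a mean of 8.45 and a highest value of 153 in KRT6A-positive cells against 0.813 and 16.1 in KRT6A-negative cells. Cells with KRT13 numbered 21 of 59 KRT6A-positive and 7 of 37 KRT6A-negative, and its log2 ratio of 2.38 was the largest among the measured stratified keratins.

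The remaining stratified keratins gave no common direction. KRT10, of the suprabasal epidermis, had means of 20.4 in KRT6A-positive and 14.7 in KRT6A-negative cells, with a log2 ratio of 0.45 and a difference of mean log2 of -0.24. The hair keratin KRT81 had means of 25.3 and 48.4 (log2 ratio -0.91), and the hair keratin KRT34 was detected in 4 KRT6A-positive and 2 KRT6A-negative cells. Carriers of several stratified keratins were present on both sides. At least 2 of KRT14, KRT16 and KRT17 were detected together in 18 cells with 2 and 10 cells with 3 among the 59 KRT6A-positive cells, and in 5 cells with 2 and 7 cells with 3 among the 37 KRT6A-negative cells. KRT14, KRT16 and KRT17 have close pseudogene copies, so their levels carry the same doubt as KRT6A.

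**Figure D2:**
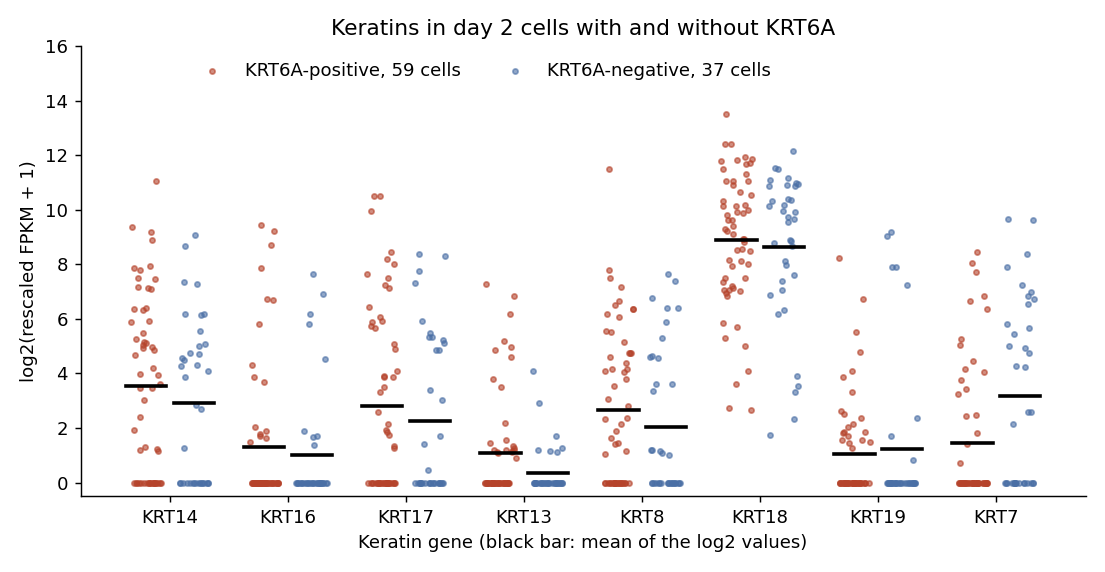
Keratin values in single day 2 cells as log2(rescaled FPKM + 1), with KRT6A-positive cells (59, red) left of KRT6A-negative cells (37, blue) for each gene and a black bar at the mean of the log2 values. KRT18 is detected in every cell of both sides, KRT14, KRT17 and KRT8 in a part of both, and KRT7 in a smaller share of the KRT6A-positive side (18 of 59 against 20 of 37 cells).

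The keratins of simple epithelia did not move as a group. Of 6 genes 4 were measured, 1 was called higher and 2 lower, and the median log2 ratio was -0.75. KRT18, the type I chain of simple epithelia, was detected in all cells of both sides, with medians of 592 in KRT6A-positive and 808 in KRT6A-negative cells, means of 1332 and 1027, and a log2 ratio of 0.37. KRT8, its type II partner, had means of 72.97 in KRT6A-positive and 22.8 in KRT6A-negative cells and was called higher at 1.64. That call rested on few cells: among cells with at least 4000 genes the log2 ratio of KRT8 was 0.25, and without the highest cell of each side it was 0.42.

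KRT7, the type II chain of ductal and glandular epithelia, was lower in KRT6A-positive cells. It had a median of 0 and a highest value of 346 there (mean 21.7), against a median of 4.95 and a highest value of 804 in KRT6A-negative cells (mean 81.7). Cells with KRT7 were 18 of 59 KRT6A-positive (30.5%, interval 19.2% to 43.9%) and 20 of 37 KRT6A-negative ones (54.1%, interval 36.9% to 70.5%). The log2 ratio of KRT7 was -1.87 in all cells and -1.71 in cells with at least 4000 genes. KRT19 had the larger share of cells on the positive side (35.6% against 18.9%) but the lower mean there (9.45 against 47.3, log2 ratio -2.21), because a few KRT6A-negative cells reached up to 584.

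SOX2, KLF4 and MYC were not called between the sides. SOX2 ran from 0 over a median of 39.8 to 369 in KRT6A-positive cells and from 0 over 5.16 to 282 in KRT6A-negative cells, with means of 70.6 and 48.1 and a log2 ratio of 0.54. SOX2 was found in 37 of 59 KRT6A-positive and 22 of 37 KRT6A-negative cells. KLF4 had means of 28.6 and 27.1, and MYC means of 952 and 1045 (log2 ratio -0.13). The log2 ratios of KLF4 and MYC were thus near that of the median gene, and SOX2 was not called. POU5F1, the gene of OCT4, had means of 0.402 in KRT6A-positive and 0.0468 in KRT6A-negative cells and so was not measured. FPKM do not tell viral from endogenous transcripts.

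The genes with the largest differences were taken by a rule that asked for a mean of at least 10 on the higher side, a 2-fold difference, shares of cells that differ by at least 20 percentage points, and a 2-fold difference again in cells with at least 4000 genes. This rule left 29 higher and 34 lower genes, of which the 12 with the largest difference of mean log2 in each direction are described. Among all 12196 measured genes, 132 (1.08%) had a share higher by at least 20 points and 229 (1.88%) a share lower by at least that much, so differences of this size in share are uncommon but were what the rule selected. For the same reason, whether the intervals of the shares of these genes overlap says nothing further.

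PI16, a secreted peptidase inhibitor that marks a subset of adventitial fibroblasts, led the higher genes. It ran from 0 over a median of 22.9 to 1334 in KRT6A-positive cells (mean 96.1) and from 0 over 0 to 672 in KRT6A-negative cells (mean 35.02), a log2 ratio of 1.43. It was detected in 39 of 59 KRT6A-positive cells (66.1%, interval 52.6% to 77.9%) and in 17 of 37 KRT6A-negative cells (45.9%, interval 29.5% to 63.1%). PI16 was therefore held by most positive cells and by a large minority of the negative cells.

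HBZ, the zeta chain of embryonic haemoglobin, had the largest ratio of the 12 higher genes. It ran from 0 over 0 to 1858 in KRT6A-positive cells (mean 86.1) and from 0 over 0 to 135 in KRT6A-negative cells (mean 8.68), a log2 ratio of 3.17. Its cells were 29 of 59 KRT6A-positive (49.2%, interval 35.9% to 62.5%) against 5 of 37 KRT6A-negative (13.5%, interval 4.54% to 28.8%). Other globins were present as well. The alpha chain HBA2 was detected in 43 of 59 KRT6A-positive cells (72.9%) and 18 of 37 KRT6A-negative cells (48.6%), with means of 448 and 255. The beta chain HBB was detected in 7 and 1 cells, while the leukocyte genes PTPRC and CD3E were detected in 1 and 3 KRT6A-positive cells and in 1 KRT6A-negative cell each. CD68, also carried on the blood and immune list, was lower in KRT6A-positive cells. HBA2 has a near-identical copy, HBA1, so the share between them is uncertain.

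NSG1, an endosomal sorting protein best known from neurons, ran from 0 over 7.06 to 411 in KRT6A-positive cells and from 0 over 0.501 to 142 in KRT6A-negative cells. Its means were 38.1 and 9.32 (log2 ratio 1.92), and its shares 66.1% (interval 52.6% to 77.9%) and 32.4% (interval 18.01% to 49.8%). EREG, the EGF receptor ligand epiregulin, was detected in 24 of 59 KRT6A-positive cells (40.7%, interval 28.1% to 54.3%) and 3 of 37 KRT6A-negative cells (8.11%, interval 1.70% to 21.9%), with means of 15.5 and 2.98. The rule selected both genes on these shares, as it did HBZ.

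EPPK1, the keratin-binding cytolinker epiplakin, had a median of 3.10 and a highest value of 315 in KRT6A-positive cells, against 0 and 39.3 in KRT6A-negative cells, with shares of 59.3% and 29.7% and a log2 ratio of 2.12. RHOF, a GTPase of filopodia, was detected in 66.1% of KRT6A-positive and 35.1% of KRT6A-negative cells (means 21.2 and 5.999). The phosphatase PTP4A3 was detected in 49.2% and 16.2% (means 24.4 and 4.21), and NPTX1, a neuronal pentraxin, in 55.9% and 29.7% (means 28.2 and 6.63). The other members of the 12 were UIMC1, a ubiquitin-binding DNA repair protein, SPNS1, a lysosomal lipid transporter, LPCAT3, a phospholipid acyltransferase, and SARS2, a mitochondrial tRNA synthetase. Their log2 ratios lay between 1.42 for LPCAT3 and 1.90 for UIMC1. The 12 genes thus came from unrelated families, with 1 keratin-binding protein among them and 0 keratins.

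CSRP2, a LIM-domain protein of smooth muscle and myofibroblasts, led the lower genes. It ran from 0 over a median of 1.54 to 340 in KRT6A-positive cells (mean 64.02) and from 0 over 104 to 908 in KRT6A-negative cells (mean 211), a log2 ratio of -1.70. Of KRT6A-positive cells 30 of 59 held it (50.8%, interval 37.5% to 64.1%), as did 29 of 37 KRT6A-negative cells (78.4%, interval 61.8% to 90.2%). Nearly as many positive cells lacked CSRP2 as held it.

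CXCL8, the neutrophil chemokine interleukin 8, had the largest ratio of the 12 lower genes at -3.86. It was detected in 2 of 59 KRT6A-positive cells (3.39%, interval 0.413% to 11.7%), with a highest value of 153 and a mean of 2.74. In KRT6A-negative cells it was detected in 11 of 37 (29.7%, interval 15.9% to 46.98%), with a highest value of 899 and a mean of 53.3. The medians of both sides were 0.

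Among the other lower genes were KRT7, described above, and EXT1, a heparan sulphate polymerase, with means of 6.29 in KRT6A-positive and 29.7 in KRT6A-negative cells and shares of 40.7% and 64.9%. ZDHHC12, a palmitoyltransferase, was detected in 32.2% of KRT6A-positive cells (interval 20.6% to 45.6%) and 70.3% of KRT6A-negative cells (interval 53.02% to 84.1%). PPP1R13L, an inhibitor of p53, had means of 3.22 and 14.6, CDCA7L, a MYC-binding nuclear protein, means of 12.5 and 42.4, and the lysosomal glycoprotein CD68 means of 10.5 and 27.5. LRP11, APBB1, PLEKHJ1 and TSPAN5 complete the 12, with log2 ratios between -2.05 for LRP11 and -1.04 for PLEKHJ1. As with the higher genes, no one family accounted for them.

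**Figure D3:**
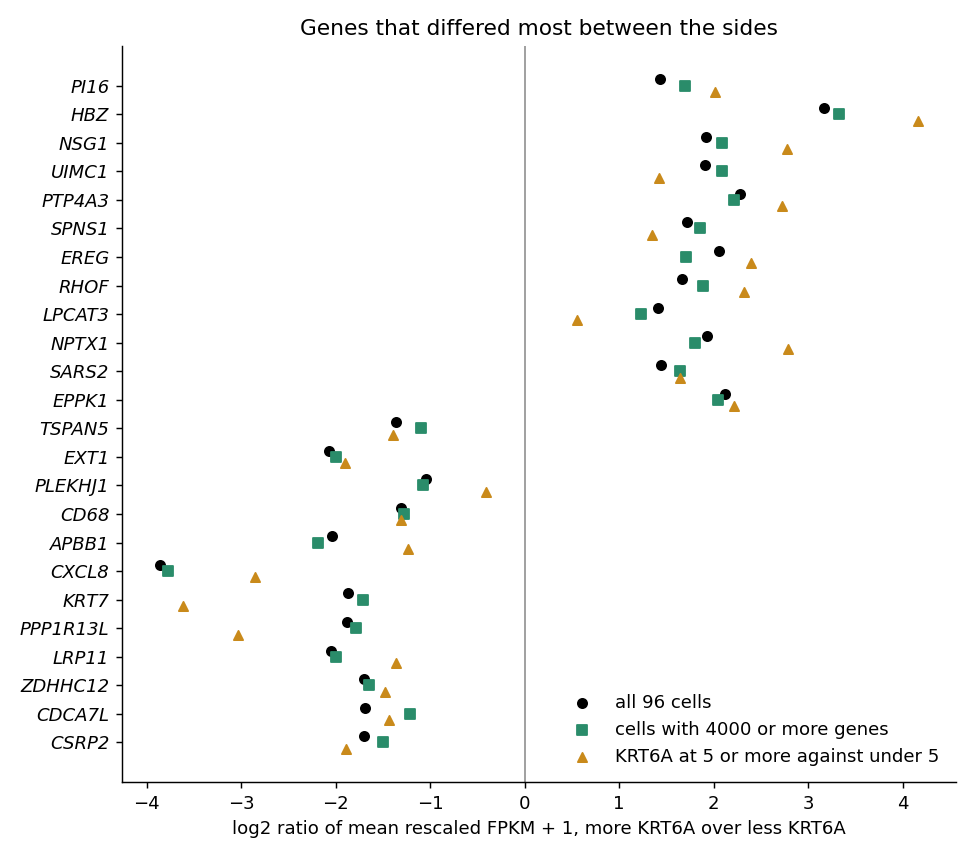
Log2 ratios of the 12 genes with the largest positive and the 12 with the largest negative difference of mean log2 between KRT6A-positive and KRT6A-negative day 2 cells; circles use all 96 cells, squares the 81 cells with at least 4000 genes, and triangles set KRT6A at 5 or more against under 5. The sign and the 2-fold difference in the first and second setting follow from the choice of genes, and LPCAT3 (0.55) and PLEKHJ1 (-0.41) fall under the 2-fold limit in the last.

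With the low shelf set apart, the higher and the lower genes ordered differently. In each of the 12 higher genes the share of low cells, with KRT6A above 0 and under 5, was nearer to that of cells at 0 than to that of cells at 5 or more. The low cells held PI16 in 29.6% (interval 13.8% to 50.2%), against 44.8% (26.4% to 64.3%) of cells at 0 and 87.5% (73.2% to 95.8%) of cells at 5 or more. HBZ was detected in 13.8% of cells at 0, 11.1% of low cells and 67.5% of cells at 5 or more, and NSG1 in 34.5%, 37.04% and 77.5%. SARS2 and LPCAT3 were graded, at 20.7%, 37.04% and 55% for SARS2 and 34.5%, 48.1% and 67.5% for LPCAT3, and so was EREG, at 6.90%, 25.9% and 45%. Outside these 12, KRT14 stood at 58.6%, 44.4% and 77.5%, and KRT8 at 44.8%, 40.7% and 72.5%. The low cells thus resembled the cells at 0 in most of these genes, although 19 of the 27 low cells count as KRT6A-positive.

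Among the 12 lower genes, the low cells were nearer to the cells at 0 in 5 and nearer to the cells at 5 or more in 7. KRT7 was detected in 48.3% of cells at 0, 55.6% of low cells and 22.5% (interval 10.8% to 38.5%) of cells at 5 or more, and CSRP2 in 75.9%, 70.4% and 45%. CXCL8 stood at 31.03% (15.3% to 50.8%), 7.41% and 5%, LRP11 at 58.6%, 29.6% and 27.5%, and APBB1 at 65.5%, 25.9% and 37.5%. CXCL8, LRP11 and APBB1 therefore differed mainly between cells with any KRT6A value and cells at 0, and KRT7 and CSRP2 mainly between cells at 5 or more and the others.

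**Figure D4:**
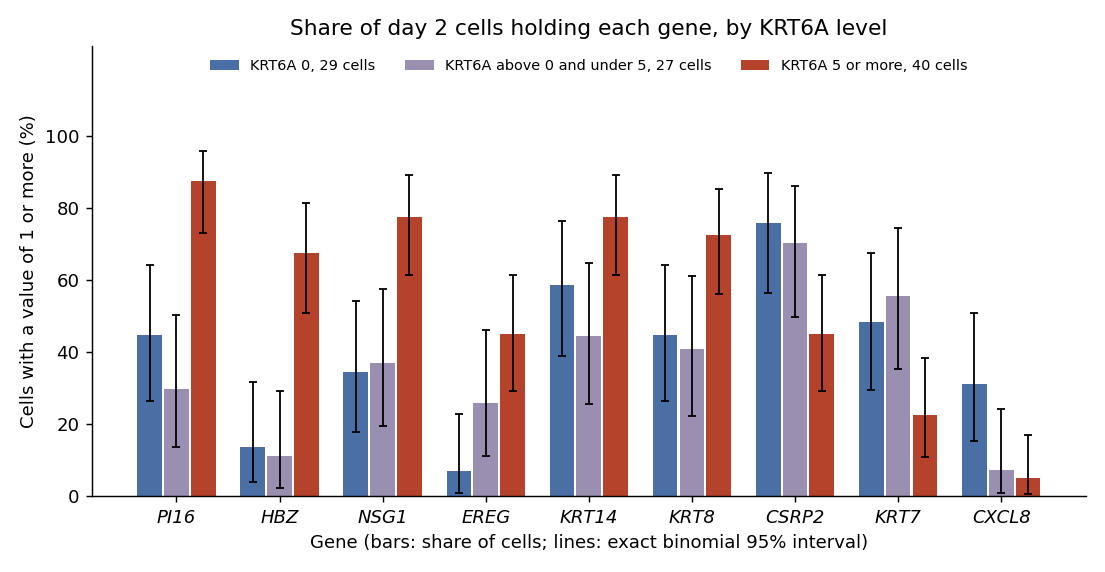
Share of day 2 cells with a value of 1 or more for 9 genes, in cells with KRT6A at 0 (29 cells, blue), above 0 and under 5 (27, violet) and at 5 or more (40, red), with exact binomial 95% intervals as lines. PI16, HBZ and NSG1 have like shares in the first and second class and higher ones in the third (87.5%, 67.5% and 77.5%), KRT7 and CSRP2 lower ones, and CXCL8 is already low in the second.

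Division at 5 in place of 1 moved ratios in both directions. It gave a larger log2 ratio for 9 of the 12 higher genes and for 4 of the 12 lower genes, and a smaller one for the other 3 and 8. Over all genes it called 1341 of 12226 genes (11%) higher and 1206 (9.86%) lower in the cells at 5 or more. The log2 ratio of HBZ was 4.16, of PI16 2.01, of NSG1 2.77, of KRT14 1.90, of KRT16 2.41 and of KRT7 -3.62. Smaller ones were those of LPCAT3 (0.55), KRT17 (1.02), S100A2 (1.07), LRP11 (-1.37), APBB1 (-1.24), CXCL8 (-2.85) and PLEKHJ1 (-0.41). KRT7 averaged 5.05 in the 40 cells at 5 or more. Ranked over all 96 cells, KRT6A had Spearman's correlations of 0.50 with HBZ, 0.48 with PI16, 0.47 with NSG1, 0.43 with EREG, 0.22 with KRT14 and -0.30 with KRT7. The cells are 1 sample, and these values are descriptions. HBZ, PI16, NSG1, EREG and KRT7 were chosen by their difference between the sides in these same cells. Their correlations over the 96 cells follow in part from that choice and are no further support. Within the 59 KRT6A-positive cells the correlations were 0.49, 0.57, 0.52, 0.30, 0.36 and -0.25 in the same order of genes. Over all 96 cells, the correlations of these genes with the number of detected genes were 0.20, 0.36, 0.20, 0.20, 0.17 and 0.03. The part of detected genes in the differences was not tested.

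Other genes of keratinocytes were mostly not measured. Of 29 keratinocyte genes 7 had a mean of at least 1, of which 1 was called higher (COL17A1, the hemidesmosomal collagen, with means of 2.30 in KRT6A-positive and 0.293 in KRT6A-negative cells) and 0 lower. With the division at 5, 4 of 7 were called higher (COL17A1, LY6D, TGM1 and SFN) and 0 lower. COL17A1 was detected in 15% of cells at 5 or more and 3.57% of cells under 5. SFN was detected in 10% and 7.14%, so these calls rested on few cells, and TGM1 lay just past the limit at 1.01. The median log2 ratio of the 7 genes was also 1.01 with this division, and 11% of all genes were called higher. LY6D, a surface protein of stratified epithelia, was detected in 28 of 59 and 11 of 37 cells (47.5% and 29.7%). With the division at 1 its log2 ratio was 0.85 in all cells, -0.71 in cells with at least 4000 genes and 2.26 without the highest cell of each side. Its direction there depended on few cells. With the division at 5 the log2 ratio of LY6D was 1.47, with shares of 62.5% in cells at 5 or more and 25% in cells under 5. The desmosomal and junctional genes DSP, PERP and JUP had ratios between 0.31 and 0.39 and were detected in 94.9%, 77.97% and 81.4% of KRT6A-positive cells and in 94.6%, 81.1% and 81.1% of KRT6A-negative cells. The calcium-binding S100A2 of basal epidermis averaged 304 in KRT6A-positive and 57.98 in KRT6A-negative cells, with a highest value of 5018 and shares of 57.6% and 51.4%. S100P was the other of 2 higher genes among 11 measured S100 genes, beside 1 lower gene.

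In all cells at the threshold of 1, genes of the epidermal wound response were called about as often as all genes. Of 29 measured, 4 were called higher and 3 lower, beside 10.5% and 8.8% of all measured genes, and the median log2 ratio was 0.01. The higher ones were the EGF receptor ligands EREG and AREG, the laminin-binding integrin chain ITGA6, and SERPINB2, an inhibitor of plasminogen activators. AREG (amphiregulin) was detected in 28.8% of KRT6A-positive and 13.5% of KRT6A-negative cells, with means of 5.48 and 0.976. ITGA6 had a log2 ratio of 1.52 in all cells and 0.14 in cells with at least 4000 genes, so its call rested on the cells with fewer genes. The lower ones were MMP3, IL6 and CXCL8. Other settings called more of the list lower. In cells with at least 4000 genes 3 of 30 were called higher and 5 lower, beside 8.21% and 7.31% of all genes. At the threshold of 5, 3 of 29 were called higher and 8 lower, beside 11% and 9.86% of all genes. Without the highest cell of each side 5 of 24 were called higher and 5 lower, beside 8.52% and 5.18%.

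Inflammatory and senescence-associated secretory genes were lower or not called in all cells at the threshold of 1. Of 19 measured, 7 were called lower and 0 higher, with a median log2 ratio of -0.77, beside the 8.8% of all genes called lower. In cells with at least 4000 genes the count was again 7 lower and 0 higher of 19, and the median was -0.82. Without the highest cell of each side it was 7 lower and 1 higher of 17, with LIF and NFKBIZ no longer called and CXCL1 among those called lower. At the threshold of 5 it was 7 lower and 2 higher of 18, with a median of -0.40. With all cells at the threshold of 1, the lower genes were the cytokines IL6, LIF and CXCL8, the hyaluronan-binding TNFAIP6, the NF-kappa-B cofactor NFKBIZ, the prostaglandin synthase PTGS2 and the stromelysin MMP3. IL6 was detected in 10.2% of KRT6A-positive and 18.9% of KRT6A-negative cells, with means of 17.5 and 43.2 and highest values of 457 and 846. MMP3 was detected in 44.1% and 59.5%, with means of 32.3 and 87.1. TNFAIP6 had means of 4.03 and 25.3, and PTGS2 means of 3.83 and 19.4. Apart from MMP3, the members called lower were detected in at most 40.5% of the cells of either side. CXCL1, which was not called, was detected in 25.4% of KRT6A-positive and 48.6% of KRT6A-negative cells.

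Immediate-early genes were called lower or not called. Of 13 measured, 3 were called lower (EGR1, EGR2 and NR4A1) and 0 higher, beside 8.8% of all genes called lower. The median log2 ratio was -0.08. The count was again 3 lower and 0 higher of 13 in cells with at least 4000 genes, and also without the highest cell of each side. At the threshold of 5 it was 4 lower and 0 higher of 13 (median -0.53), beside 9.86% of all genes called lower. EGR1, a growth factor-induced zinc finger factor, averaged 11.4 in KRT6A-positive and 29.1 in KRT6A-negative cells, with shares of 45.8% and 54.1%. NR4A1, an orphan nuclear receptor, averaged 1.41 and 10.6, with shares of 16.9% and 35.1%.

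The fibroblast genes were mainly alike, with a minority called lower. Of 33 measured, 6 were called lower (LUM, DCN, POSTN, PDGFRB, FAP and GREM1) and 0 higher, beside 8.8% of all genes called lower. The median log2 ratio was -0.16. PDGFRB, the receptor for platelet-derived growth factor, was detected in 35.6% of KRT6A-positive and 59.5% of KRT6A-negative cells, with means of 3.48 and 19.5 and a log2 ratio of -2.19. POSTN (periostin), a matrix protein of activated fibroblasts, had means of 16.3 and 98.03, and the small proteoglycan lumican (LUM) 82.9 and 172. COL1A1 had means of 279 and 241 and was not called. In cells with at least 4000 genes 3 of the 33 genes were called lower, which is near the 7.31% of all genes called lower there. Without the highest cell of each side 4 were called lower, with LUM and FAP no longer called, beside 5.18% of all genes.

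Contractile genes were called more often where the division was at a KRT6A value of 5. At the threshold of 1, 2 of 20 measured genes were called lower, ACTA2 and ACTG2, the smooth muscle actins of alpha and gamma type. ACTA2 was detected in 35.6% of KRT6A-positive and 54.1% of KRT6A-negative cells, with means of 65.4 and 152 and highest values of 1185 and 1496. At the threshold of 5, 9 of 21 were called lower and 0 higher, with a median log2 ratio of -0.90, beside 9.86% of all genes called lower. TPM1, an alpha-tropomyosin, averaged 501 in cells at 5 or more and 1379 in cells under 5. The calponins CNN2 and CNN3 averaged 11.8 and 18.2 in cells at 5 or more, against 41.3 and 50.3 in cells under 5. Transgelin (TAGLN) averaged 1016 and 1894 and was not called.

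In all cells at the threshold of 1, cell cycle and housekeeping genes were called no more often than all genes. Of 28 S phase genes, 0 were called higher and 2 lower, of 28 genes of G2 and M phase 1 was higher and 0 lower, and of 16 housekeeping genes 0 were called in either direction, with a median log2 ratio of -0.05. At the threshold of 5, 4 of 28 S phase genes were called higher and 0 lower, beside 11% and 9.86% of all genes. Interferon-response genes gave 2 higher and 4 lower of 31 at the threshold of 1, beside 10.5% and 8.8% of all genes. At the threshold of 5 they gave 1 higher and 8 lower of 31. Without the highest cell of each side they gave 2 higher and 5 lower of 29, beside 8.52% and 5.18% of all genes.

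Day 8 offered cells that had no part in the division at day 2. Of 92 kept day 8 cells 19 were KRT6A-positive, with values from 1.5002 over a median of 86.97 to 1465, and 73 were KRT6A-negative. They had medians of 6264 and 5903 detected genes, and the part of this gap in the differences was not tested. Of 12236 measured genes, 1049 (8.57%) were called higher and 1176 (9.61%) lower in the KRT6A-positive cells. These shares were not counted at day 8 without the highest cell of each side, so day 8 counts in that setting have no such level beside them. BJ and the day 16 fractions held too few KRT6A-positive cells (0, 2 and 3) to be compared.

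Stratified keratins at day 8 rested on few cells. Of 9 measured, 6 were called higher and 2 lower, with a median log2 ratio of 1.44, while without the highest cell of each side 3 of 7 were called higher and 1 lower, with a median of -0.20. KRT17 was detected in 47.4% of KRT6A-positive and 24.7% of KRT6A-negative day 8 cells, with highest values of 2128 and 342 and means of 135 and 12.8 (log2 ratio 3.31). KRT16 was detected in 15.8% and 1.37%, with highest values of 271 and 1.68 and means of 20.1 and 0.0231. Without those highest cells the means of KRT17 were 24.8 and 8.22 (log2 ratio 1.48) and the log2 ratio of KRT16 was 2.83. KRT13 had means of 21.3 and 5.93, with a log2 ratio of 1.69 in either setting. KRT14 had means of 18.9998 and 7.61 and highest values of 322 and 325, with shares of 21.1% and 12.3%. Its log2 ratio was 1.22 with all cells and turned to -0.41 without the highest cell of each side (means 2.15 and 3.20). KRT16, KRT17 and KRT13, but not KRT14, were thus called higher at both times with and without their highest cells, although medians at day 8 were 0 on both sides in each of them.

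Among the simple keratins KRT7 was called lower at both times. KRT7 averaged 6.44 in KRT6A-positive and 27.3 in KRT6A-negative day 8 cells, a log2 ratio of -1.93, with highest values of 86.7 and 1160 and shares of 21.1% and 30.1%. Without the highest cell of each side the ratio was -2.08. KRT19 had the opposite sign, with means of 265 and 140 and shares of 84.2% and 52.1%. KRT8 averaged 1165 and 1247 and was not called (log2 ratio -0.10), and KRT18 averaged 4886 and 2765 (log2 ratio 0.82).

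**Figure D5:**
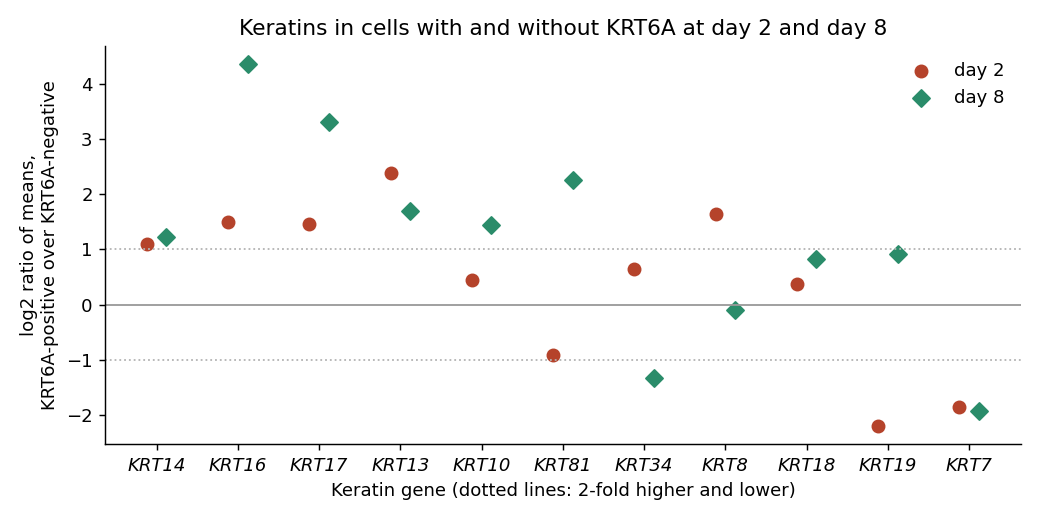
Log2 ratio of means, KRT6A-positive over KRT6A-negative cells, for 11 keratins at day 2 (59 against 37 cells, red circles) and day 8 (19 against 73 cells, green diamonds), with dotted lines at 2-fold. KRT14, KRT16, KRT17 and KRT13 lie above the upper line at both times and KRT7 below the lower one, while KRT81, KRT34, KRT8 and KRT19 differ in sign; without the highest cell of each side KRT14 at day 8 lies at -0.41, KRT81 at -0.20 and KRT10 at -0.54.

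Of 17 keratinocyte genes measured at day 8, 9 were called higher and 0 lower, with a median log2 ratio of 1.06. Without the highest cell of each side 5 of 12 were called higher and 1 lower, with a median of 0.97. LY6D averaged 368 in KRT6A-positive and 18.03 in KRT6A-negative day 8 cells, with shares of 47.4% and 10.96%. S100A2 averaged 48.1 and 6.84, with shares of 73.7% and 31.5% and a log2 ratio of 2.65. LY6D and S100A2 kept their calls without the highest cell of each side, at log2 ratios of 4.48 and 2.07.

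The genes named at day 2 had the same sign at day 8 in part. Of the 12 higher genes 8 had the same sign at day 8 and 4 were called higher, NSG1, PTP4A3, RHOF and NPTX1. Of the 12 lower genes 10 had the same sign and 4 were called lower, CDCA7L, KRT7, CXCL8 and EXT1. Beside these counts stand the 8.57% of all measured day 8 genes called higher and the 9.61% called lower. The median log2 ratio of all measured genes was -0.04 at day 8, so either sign was common and a like sign alone says little. Without the highest cell of each side 7 of the 12 higher genes had the same sign and 2 were called, PTP4A3 and RHOF. NSG1 stood at 0.80 in that setting, and NPTX1, detected in 10.5% and 8.22% of the cells, turned to -0.31. Of the 12 lower genes 10 then had the same sign and 7 were called, with APBB1, LRP11 and PPP1R13L added. PI16 was detected in 100% of KRT6A-positive and 64.4% of KRT6A-negative day 8 cells, with medians of 104 and 21.6, means of 141 and 75.5 and a log2 ratio of 0.89, just short of a call. HBZ and EREG did not recur by their means. HBZ averaged 9.68 in KRT6A-positive and 15.005 in KRT6A-negative day 8 cells, although detected in 21.1% and 8.22% of them, and EREG averaged 1.25 and 3.10.

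The gene groups with members called lower at day 2 recurred unevenly at day 8. Of 21 inflammatory and secretory genes measured at day 8, 4 were called higher and 8 lower, with a median log2 ratio of -0.25 and a median difference of mean log2 of 0.35, which have opposite signs. CXCL1 was detected in 68.4% of KRT6A-positive and 38.4% of KRT6A-negative day 8 cells, the reverse of its order at day 2. Of 20 contractile genes 5 were called lower and 0 higher (median -0.53), where day 2 at the same threshold gave 2 lower of 20 (median -0.22). Of 34 fibroblast genes 5 were called lower and 1 higher (median -0.01). Beside these day 8 counts stand the 9.61% of all measured genes called lower at day 8. Without the highest cell of each side, 6 of 16 inflammatory, 5 of 19 contractile and 9 of 34 fibroblast genes were called lower at day 8. In that setting 0 were called higher in each group, and the medians were 0.12, -0.64 and -0.20. The share of all genes called lower in that setting was not counted at day 8.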

How the data were processed

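The deposited values are FPKM, made by the authors with STAR and Cuffnorm on hg19, per the submitters' processing notes; versions are not given in the sources used here. Per the labels, cells were captured on Fluidigm C1 chips. The tables hold 27021 genes for 96 cells in each of 5 groups. FPKM are not counts and the depth per cell is unknown, so no count model and no limit per cell was used. Cells were rescaled to 1000000 and kept with 2000 or more genes at 1 or more. No pair of day 2 cells held identical values. Doublets were not called; leaving out the 5% of cells with most genes was an alternative. Genes counted as measured where 1 side had a mean of at least 1. The fold scale, log2 of (mean + 1), understates the change of low genes. The allowed share for 0 cells is 3 counts of the total.

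Named genes were the 12 highest and 12 lowest by difference of mean log2(value + 1) under the limits given above, every measured stratified keratin, simple keratin and factor, and the 2 measured members of each other list with the largest difference; other members are named because they were called. The members, the 34 lists and the rules were chosen with earlier results of these data known. The contrast was tested on simulated data with known changes. Those data lacked the many zeros of the real cells, so they do not show how calls behave with such zeros. Python 3.11.15, numpy 2.4.6, pandas 2.3.3, scipy 1.17.1 and matplotlib 3.10.9 were used.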

Additional observations from a re-analysis of the deposited data

How the results depend on the processing

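No paired analysis was possible because both sides are cells of 1 sample and the result comes from no test. The 12 higher and 12 lower named genes kept their sign under the 16 alternatives run, and 11 or 12 of each stayed past 2-fold. Their choice fixed this for cells with at least 4000 genes, for difference of mean log2 and for both filters on the mean, so these say nothing of stability. The counts moved more. The count of higher genes was 1936 when cells were scaled on housekeeping genes, 440 with a pseudocount of 5, 82 by difference of mean log2, and 480 with a mean of at least 10. The count of lower genes was 2464 from FPKM as deposited, 284 with a pseudocount of 5, 352 by difference of mean log2, 544 without the highest cell of each side, and 376 with a mean of at least 10. Scaling changed the balance of calls: 1195 higher beside the 2464 lower from FPKM as deposited, and 1028 lower beside the 1936 higher under housekeeping scaling. KRT17 turned to -0.46 from FPKM as deposited. At day 8, leaving out the highest cell of each side, chosen after seeing the data, moved the named genes called from 4 to 2 higher and from 4 to 7 lower, and turned ATF3 to -0.36, ESRP2 to -0.45, KRT10 to -0.54, KRT14 to -0.41, KRT81 to -0.20, NPTX1 to -0.31 and XAF1 to -0.067. KRT6A at 5 or more covered 41.7% of cells. The difference in median detected genes, positive minus negative, was -97 in all cells, 384 in cells with at least 4000 genes and 513 at the threshold of 5. Chosen after seeing the data, leaving out the 6 KRT6A-positive and 2 KRT6A-negative cells in which 1 gene took over 20% gave 1019 higher and 1182 lower genes, and a log2 ratio of 0.11 for KRT8. Over all day 2 alternatives, 18 list medians moved and 522 did not, and 160 values of named genes moved, 1 reversed and 1113 did not. The causes were not tested.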
